A study of Sus scrofa with 13 samples.

Results

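EREG, AREG, HBEGF, BTC, TGFA and EGF encode growth factors of the epidermal growth factor (EGF) family, and EGFR, ERBB2, ERBB3 and ERBB4 encode the ErbB family of receptors. All 10 genes had a row in the 12 count tables, out of 27339 gene rows, and 8 of the 10 were among the 11868 genes with enough reads to be tested. EREG was selected on its lower count under hypoxia in an earlier fit of these same libraries, and the other 9 genes were chosen by family membership. The hypoxia and normoxia values of all 10 are therefore a description of these libraries and carry no test of their own.

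5-hydroxymethylcytosine (5hmC), the oxidised form of 5-methylcytosine made by TET enzymes, was profiled with an antibody in mesenchymal stem cells. The cells were grown from abdominal fat of female domestic pigs fed a 2% high-cholesterol diet, taken 3 weeks after a coil had been placed to narrow 1 renal artery. The 6 hypoxia libraries came from cells held at 1% oxygen for 48 hours, and the 6 normoxia libraries from cells at 20% oxygen. Diet, stenosis, sex, collagenase isolation and platelet-lysate medium were common to both groups, and no libraries of healthy pigs are among them. The age of the animals is not given in the labels. The sample titles carry the numbers 110, 16, 21, 33, 49 and 4, each once per group. The labels do not say what these numbers are. A p-value here only sets the difference between the groups against the scatter of these libraries, and that scatter may be technical.

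The family's ligands are made as membrane-anchored precursors and are released by cell-surface proteases of the ADAM class. Released ligand binds EGFR or ERBB4, the receptors pair with each other or with ERBB2 and ERBB3, and the pair signals through the RAS-MAPK and PI3K-AKT cascades to growth, survival and migration genes. In mesenchymal stromal cells this axis is known for its effects on proliferation, motility and secreted repair factors. A 5hmC read count reports a DNA mark, not the amount of RNA or protein.

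Each table summed to between 15569948 and 27428482 reads. Those in genes numbered 263578 to 714002, or 1.69 to 2.89%. Values are CPM, reads scaled to a common total of reads in tested genes and adjusted by edgeR's TMM method. The part of a gene that was counted is not given in the sources used here, so levels are compared across libraries for 1 gene at a time and not between genes. The stromal markers THY1, ENG, NT5E, PDGFRA, PDGFRB, VCAM1, LEPR, COL1A1, COL1A2 and S100A4 all passed the count filter. Their summed level was 708 to 1132 CPM under hypoxia and 642 to 1457 under normoxia. Of the 10 leukocyte markers 6 passed the count filter, while CD14 had 15 reads over all libraries and CSF1R 24. The 10 summed to 578 to 704 CPM under hypoxia and 506 to 869 under normoxia. Of 8 endothelial markers CLDN5 had 0 reads in all 12 libraries, and their sums were 517 to 664 and 385 to 621 CPM. Of the 9 epithelial markers with a row 4 passed the filter, and the 9 summed to 218 to 363 and 243 to 448 CPM. These sums cannot tell cell types apart, since the mark is not expression.

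EREG, the gene of epiregulin, a ligand of EGFR and ERBB4, carried less 5hmC signal in the hypoxia library of each of the 6 numbers. The normoxia libraries stood at 63.1 CPM at the lowest, 174 at the median and 289 at the highest, and the hypoxia libraries at 37.1, 78.0 and 197. The ranges of the groups overlapped. The mean over both libraries of a number ran from 50.1 CPM in number 16 to 243 in number 33. Number 33 had 197 CPM under hypoxia and 289 under normoxia, and number 4 had 154 and 174. Number 110 had 66.9 under hypoxia and 173 under normoxia, number 49 had 89.1 and 239, and number 21 had 46.6 and 121. Number 16 was low in both, with 37.1 under hypoxia and 63.1 under normoxia. Thus the hypoxia library of number 33 stood above the normoxia libraries of 110, 16, 21 and 4.

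**Figure D1:**
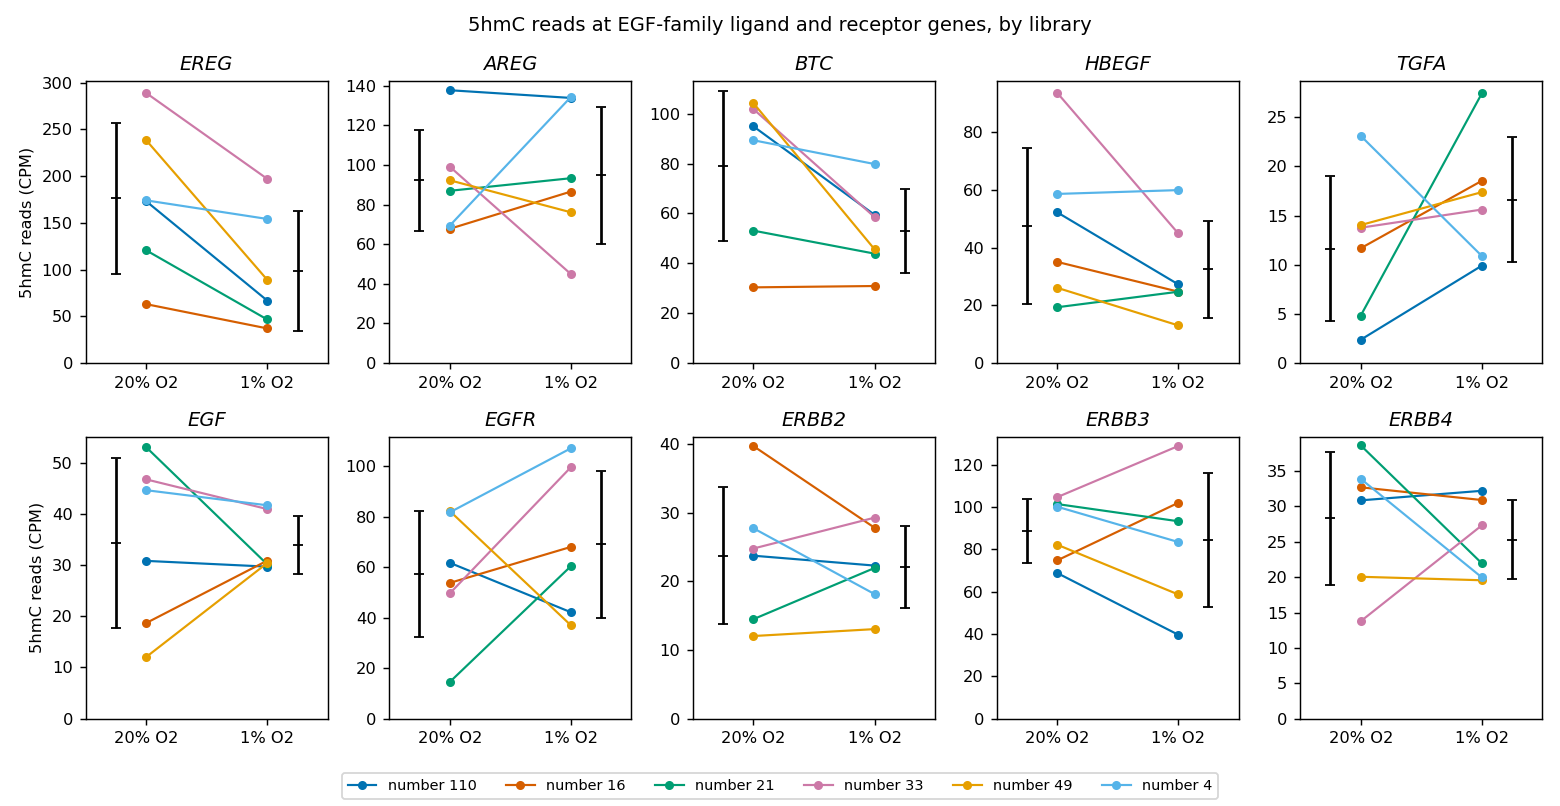
5hmC reads (CPM, linear axes starting at 0) at each of the 10 genes under normoxia (20% O2) and hypoxia (1% O2). Each line joins the 2 libraries of a title number, and black bars give the mean ± SD of the 6 libraries of a group. All 6 EREG lines slope down, from a mean of 176 to one of 98.5 CPM, while lines of AREG and EGFR cross.

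The EREG mean was 98.5 ± 63.9 CPM under hypoxia and 176 ± 80.7 under normoxia (SD over n = 6 each), a ratio of means of 0.558. edgeR's log2 fold change was -0.82 ± 0.369 (SE) without and -0.89 ± 0.206 with the title number as a block. The blocked fit, with an adjusted p of 0.172 by edgeR's quasi-likelihood test, is the value that put the gene forward. EREG was the only one of the 8 genes with lower CPM under hypoxia in 6 of 6 numbers, a pattern shown by 2.59% of all genes tested. Counting error alone leaves the ratio within a number wide. The hypoxia to normoxia ratio was 0.386 in number 110 (95% exact binomial interval 0.239 to 0.608), on 27 and 73 reads. It was 0.386 in number 21 (0.196 to 0.744), 0.373 in number 49 (0.255 to 0.537) and 0.682 in number 33 (0.514 to 0.905). In numbers 16 (0.588, 0.271 to 1.2) and 4 (0.886, 0.660 to 1.18) the interval reached past 1. These intervals cover counting error only.

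None of the 8 tested genes passed the adjusted threshold of 0.05 in either fit. Over all 11868 genes the share that passed was 0% without and 0.0337% with the block. DESeq2 without the block also called 0, and 324 genes had an unadjusted p under 0.05 in edgeR. At an unadjusted p under 0.05, EREG alone of the 8 was lower without the block, against 1.81% of all genes tested. With the block EREG and BTC were, against 4.49% of all genes. No member had hypoxia and normoxia libraries that did not overlap, against 0.101% of all genes tested. Since the contrast chose EREG, nothing is read from these shares. Over the 8 genes the log2 fold change was above 0 for 3 and below it for 5 (median -0.11). Over all genes tested 56.6% were negative, with a median of -0.04.

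**Figure D2:**
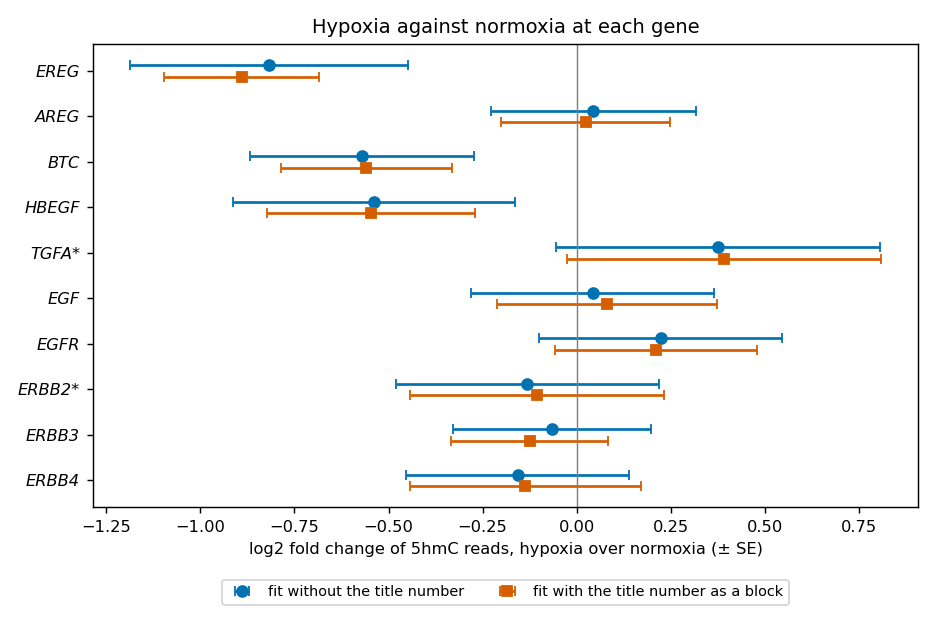
log2 fold change of 5hmC reads, hypoxia over normoxia, with edgeR's SE, from the fit without the title number (circles) and with it as a block (squares). EREG lies at -0.82 and -0.89, BTC and HBEGF lie between -0.57 and -0.54, and the bars of AREG, EGF and the 4 receptors span 0. Asterisks mark TGFA and ERBB2, which had too few reads for the test and come from a fit of all genes with at least 1 read.

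BTC encodes betacellulin, which like epiregulin binds both EGFR and ERBB4. Its normoxia libraries stood at 30.4 CPM at the lowest, 92.2 at the median and 104 at the highest, and its hypoxia libraries at 30.9, 52.1 and 79.8. CPM was lower under hypoxia in 5 of 6 numbers, and in number 16 the libraries were level at 30.9 and 30.4 CPM. The means were 53.1 ± 16.8 and 79.0 ± 30.2 CPM (SD over n = 6 each), with log2 fold changes of -0.57 ± 0.297 (SE) and, with the block, -0.56 ± 0.228. The largest drop within a number was in 49, from 104 to 45.6 CPM, a ratio of 0.438 (95% exact binomial interval 0.25 to 0.739). Number 33 was the other one whose interval lay below 1, with a ratio of 0.575 (0.343 to 0.956).

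HBEGF encodes heparin-binding EGF-like growth factor, a ligand of EGFR and ERBB4 that is also held by heparan sulfate on the cell surface. It had 4 to 38 reads per library. Normoxia libraries stood at 19.3 CPM at the lowest, 43.6 at the median and 93.6 at the highest, and hypoxia libraries at 13, 26.0 and 59.9. The groups overlapped, and CPM was lower under hypoxia in 4 of 6 numbers, all but 21 and 4. The log2 fold change was -0.54 ± 0.374 (SE) without and -0.55 ± 0.276 with the block. Number 33 contributed the largest difference in CPM, from 93.6 to 44.9. Without the normoxia library of that number the log2 fold change was -0.26.

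AREG encodes amphiregulin, a ligand of EGFR that, like epiregulin, is induced in many injured tissues. Hypoxia libraries stood at 44.9 CPM at the lowest, 89.9 at the median and 134 at the highest, and normoxia libraries at 67.7, 89.6 and 138. The medians were level, while single numbers went opposite ways. Number 33 had 44.9 CPM under hypoxia and 99.1 under normoxia, a ratio of 0.453 (95% exact binomial interval 0.256 to 0.786). Number 4 had 134 and 69.3 CPM, a ratio of 1.94 (1.32 to 2.87). In the other 4 numbers the interval held 1, and the log2 fold change was 0.04 ± 0.273 (SE) without and 0.02 ± 0.225 with the block.

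EGF, the founding ligand of the family, and TGFA, transforming growth factor alpha, had few reads. EGF had 6 to 29 reads per library and means of 34.0 ± 5.72 CPM under hypoxia and 34.4 ± 16.6 under normoxia (SD over n = 6 each). Its hypoxia libraries kept to a narrow band of 29.7 to 41.7 CPM, and its normoxia libraries ranged from 12 to 53.1. Its log2 fold change was 0.04 ± 0.323 (SE), and in all 6 numbers the interval of the ratio held 1. TGFA had 1 to 15 reads per library and did not pass the count filter. It was higher under hypoxia in 5 of 6 numbers and lower in number 4, with 6 reads under hypoxia against 15 under normoxia. In the fit of all genes with at least 1 read its log2 fold change was 0.38 ± 0.431 (SE). It was 1.03 ± 0.595 in the libraries of sequencing lane 7 and -0.37 ± 0.653 in those of lane 8, with the lane read from the file names. No interval of a TGFA ratio within a number lay away from 1.

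EGFR, the receptor shared by the ligands described above, had no common direction over the numbers. Hypoxia libraries stood at 37.0 CPM at the lowest, 64.2 at the median and 107 at the highest, and normoxia libraries at 14.5, 57.7 and 82.2. The ratio of hypoxia to normoxia was 4.17 in number 21 (95% exact binomial interval 1.25 to 21.7), on 22 and 3 reads, and 2.01 in number 33 (1.15 to 3.65). In number 49 it was 0.449 (0.239 to 0.809), on 17 and 41 reads. These 3 intervals lay away from 1 on both sides of it, and the log2 fold change was 0.22 ± 0.323 (SE) without and 0.21 ± 0.269 with the block. The normoxia library of number 21, with the fewest gene reads of the 12, held the lowest EGFR value. The log2 fold change was 0.07 without it, 0.05 without the hypoxia library of number 4, 0.09 without that of 33 and 0.40 without the normoxia library of number 4. It was 0.53 ± 0.391 (SE) in lane 7 and -0.17 ± 0.493 in lane 8. EGFR followed the log2 number of gene reads with Pearson's r of 0.766 and Spearman's rho of 0.650 over the 12 libraries, and the part of depth in its values was not tested. The RefSeq annotation places 1 further gene on the EGFR span, 1 on that of TGFA and 2 on that of ERBB4. The counted part of a gene is not given, so whether these overlaps touch the counts was not tested.

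ERBB2, the receptor with no ligand of its own, did not pass the count filter. It had 3 to 18 reads per library, with means of 22.1 ± 6.03 CPM under hypoxia and 23.7 ± 9.95 under normoxia (SD over n = 6 each). Numbers were divided 3 to 3 in direction, and the log2 fold change in the fit of all genes with at least 1 read was -0.13 ± 0.349 (SE). ERBB3, the receptor whose own kinase is weak and which binds neuregulins, had hypoxia libraries at 39.6 CPM at the lowest, 88.4 at the median and 129 at the highest. Its normoxia libraries stood at 68.8, 91.2 and 105, inside that range. The log2 fold change was -0.07 ± 0.264 (SE). ERBB4, the neuregulin receptor that also takes epiregulin and betacellulin, had 5 to 22 reads per library and means of 25.3 ± 5.59 and 28.3 ± 9.42 CPM. Its log2 fold change was -0.16 ± 0.296 (SE). For all 3 receptors the interval of the ratio held 1 in each of the 6 numbers, so a difference was not detectable within a number at this depth.

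The genes differed in the share of the spread between libraries that lay between the title numbers. Scatter alone also gives a share to the numbers, and a larger one than to the groups, because there are more numbers than groups. The shares that scatter alone would give were not computed. Whether the share of any gene for the numbers or the groups exceeds them was therefore not tested. For EREG the numbers took 67.2% of the sum of squares of log2 CPM, the groups 26.1% and 6.74% remained. For BTC the shares were 69.4, 18.4 and 12.1%, and for HBEGF 76.7, 11.2 and 12.1%. The mean over all genes tested was 58.9% for the numbers, 7.73% for the groups and 33.4% remaining. TGFA had the lowest share for the numbers, 37.2%, with 16.3% for the groups and 46.5% remaining. AREG had the smallest group share of the 10 genes, with 50.6% for the numbers, 0.00379% for the groups and 49.4% remaining. EGFR had 46.3, 5.32 and 48.4%. The group share of EREG comes from the contrast that chose it. Its small remainder was favoured by the same choice, since the blocked fit weighs the group difference against what remains. Neither is read as a trait of the gene.

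**Figure D3:**
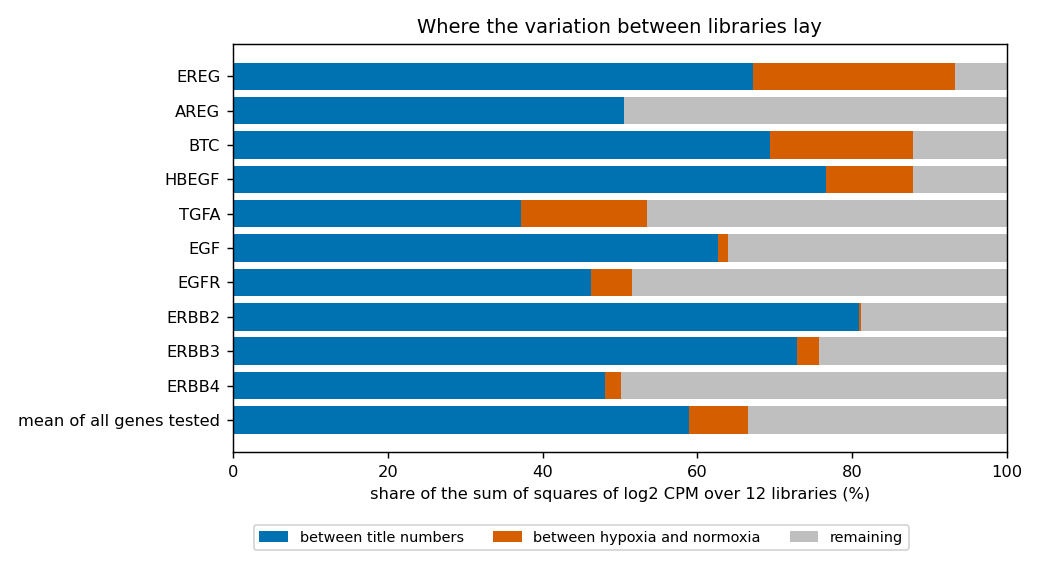
Share (%) of the sum of squares of log2 CPM over the 12 libraries that lay between the 6 title numbers, between hypoxia and normoxia, and in the remainder, for each gene and as a mean over all genes tested. EREG has the smallest remainder of the 10 genes, 6.74%, and ERBB4 the largest, 49.9%. The blocked fit that chose EREG favours a small remainder. Scatter alone also gives shares to the numbers and the groups, and these were not computed.

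EREG varied more between libraries than most genes and its paired libraries less so. Its highest CPM was 7.80 times its lowest. Its biological coefficient of variation, the spread beyond counting error, was 0.432 without the block, at percentile 95.6 of all genes tested. With the block it was 0.205, at percentile 42.0. The blocked fit that chose EREG favours a low value here. HBEGF fell from percentile 91.7 to 63.0 and BTC from 67.9 to 26.9. AREG was at 60.1 and 65.2, with values of 0.303 and 0.220. ERBB4 was at percentile 2.97 without the block, and its counts scattered over the 12 libraries no more than counting error gives (chi-square of 0.836 per degree of freedom, against 18.0 for EREG).

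The share of reads in genes was 2.39 ± 0.167% under hypoxia and 2.48 ± 0.408% under normoxia (SD over n = 6 each), and it was lower under hypoxia in 5 of 6 numbers. In number 21 it went the other way, 2.17% under hypoxia and 1.69% under normoxia. Over the 12 libraries EREG followed that share with Pearson's r of 0.525 and Spearman's rho of 0.797, and BTC with 0.545 and 0.811. EGFR had 0.714 and 0.420, HBEGF 0.451 and 0.615, AREG 0.01 and 0.161, and ERBB4 -0.508 and -0.483. The libraries share their title numbers in pairs, so these values describe 12 points that are not independent, and the part of the share of reads in genes in the EREG result was not tested. Within the 8 libraries of lane 7 EREG had means of 86.9 ± 74.5 CPM under hypoxia and 162 ± 96.2 under normoxia (SD over n = 4 each) and a log2 fold change of -0.86 ± 0.493 (SE). Within the 4 libraries of lane 8 the value was -0.75 ± 0.431 (n = 2 each).

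EREG, AREG and BTC lie side by side among the genes with a count row. The RefSeq gene order of assembly Sscrofa11.1 was used here for neighbours alone. Genes without a count row were left out of it, and distances were not measured. In this order EREG is followed by AREG and then BTC. It is preceded by LOC106504692, a long non-coding RNA gene, and EPGN, the gene of the ligand epigen. BTC and EREG went together over the 12 libraries, with Pearson's r of 0.875 and Spearman's rho of 0.860 on log2 CPM. Without the hypoxia libraries of numbers 16 and 21, those farthest from the median of EREG, r was 0.834. The hypoxia libraries alone gave 0.786 and the normoxia libraries 0.958. AREG, which lies between them, did not go with EREG in the same way (r of -0.03, rho of 0.08), with r of -0.33 among the hypoxia and 0.49 among the normoxia libraries. LOC106504692, next to EREG on the other side, had r of 0.708 over the 12 libraries, on 3 to 12 reads per library and below the count filter. EPGN had r of 0.266 over the 12 libraries, 0.498 among the hypoxia and 0.532 among the normoxia libraries. HBEGF, on another chromosome, had 0.603, 0.604 and 0.470. Among the 11867 other genes tested BTC ranked 62nd in likeness to EREG, HBEGF 1095th and AREG 5947th.

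**Figure D4:**
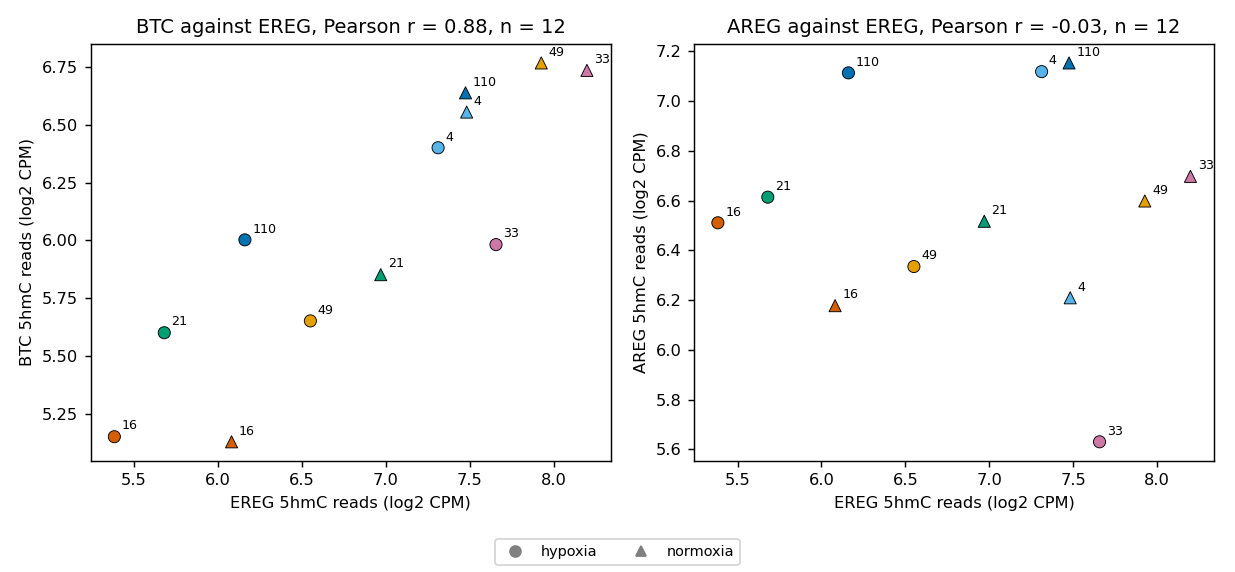
5hmC reads (log2 CPM) at BTC (left) and AREG (right) against EREG in the 12 libraries, labelled and coloured by title number, with circles for hypoxia and triangles for normoxia. BTC rises with EREG (r = 0.88) from number 16 at the lower left to the normoxia libraries of 49 and 33 at the upper right, and AREG shows no such order (r = -0.03).

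The other near neighbours of EREG had no common direction. EPGN had 44.9 ± 20.4 CPM under hypoxia and 37.9 ± 34.6 under normoxia (SD over n = 6 each), which gave a log2 change of 0.18 ± 0.455 (SE). MTHFD2L, a mitochondrial folate enzyme gene beyond EPGN, had 0.08 ± 0.453. LOC106504692 (-0.42 ± 0.410) and PARM1 (0.20 ± 0.604), on the far side of BTC, had 3 to 12 and 0 to 9 reads per library. Of the 20 genes nearest to EREG with a count row, 10 on each side, 13 passed the count filter. Their log2 fold changes lay below 0 for 6 and above it for 7 (median 0.04).

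**Figure D5:**
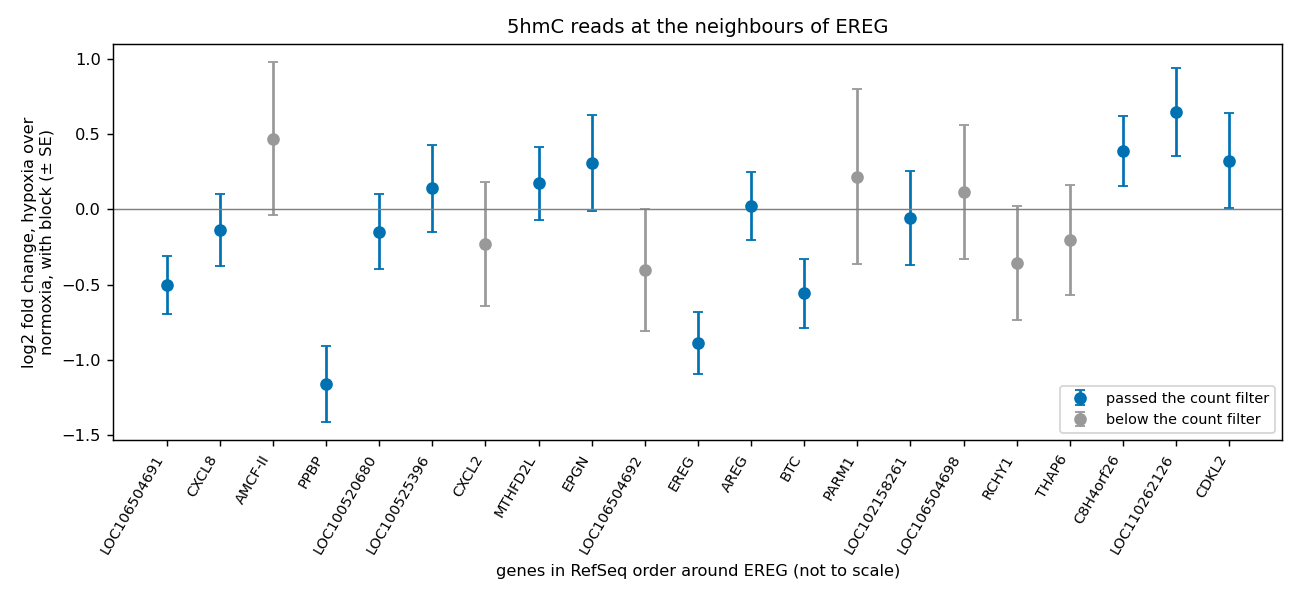
log2 fold change of 5hmC reads, hypoxia over normoxia, with the title number as a block (± SE), for EREG and the 10 genes with a count row on each side of it, in RefSeq order and not to scale. EREG (-0.89) and BTC (-0.56) lie below 0 with AREG (0.02) between them, and grey marks genes with too few reads for the test.

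By likeness over the 12 libraries, the 5 genes nearest to EREG were RFC1, AKR1CL1, CNOT6L, B4GALT6 and BNIP3L, with Pearson's r of 0.956, 0.953, 0.951, 0.949 and 0.946. RFC1 encodes the large subunit of replication factor C, CNOT6L a deadenylase, B4GALT6 a galactosyltransferase and BNIP3L a mitophagy receptor. With the group means removed their r was 0.940, 0.941, 0.933, 0.930 and 0.956. RFC1 had 28.3 CPM under hypoxia and 49.1 under normoxia on average, and AKR1CL1 103 and 169. Of all genes tested 238, or 2.01%, had r over 0.8 with EREG, so its order of libraries is shared by many genes.

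Of the other ErbB ligands, NRG1 and EPGN passed the count filter and NRG2, NRG3 and NRG4 did not. NRG1, the neuregulin that binds ERBB3 and ERBB4, had 328 ± 77.1 CPM under hypoxia and 391 ± 129 under normoxia (SD over n = 6 each), which gave a log2 change of -0.25 ± 0.227 (SE). Neither passed over all genes tested. Of 13 genes of ligand shedding 10 were tested and 0 passed in either direction or fit. ADAM17, the main sheddase of the family, and ADAM10 are among them. ADAM19 had 101 ± 8.99 and 121 ± 24.8 CPM (log2 fold change -0.27 ± 0.209) and ADAM9 70.7 ± 18.3 and 86.3 ± 23.8 CPM (-0.30 ± 0.256).

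Downstream, 0 of 23 tested adaptor and kinase genes, 0 of 18 feedback inhibitors and 0 of 18 response genes passed over all genes in either direction, with or without the block. At an unadjusted p under 0.05 without the block, there were 1 adaptor or kinase gene (ARAF) and 0 feedback inhibitors and response genes, against 2.73% of all genes tested. With the block there were 1, 5 and 3, against 7.09% of all genes tested. They are named here after their values were seen. ARAF had a value above 0, as did the feedback inhibitor DUSP5 and the response gene JUNB. The feedback inhibitors ERRFI1, SPRY1, SPRY4 and PTPN1 and the response genes PTGS2 and MMP1 had values below 0. Of the adaptor and kinase genes 9 were positive and 14 negative (median log2 fold change -0.08). ARAF, a RAF kinase, had 79.4 ± 14.4 CPM under hypoxia and 55.6 ± 16.8 under normoxia (SD, n = 6 each; log2 fold change 0.51 ± 0.245), and PIK3CA, a PI3-kinase catalytic subunit, 32.2 ± 8.83 and 44.5 ± 10.2 (-0.42 ± 0.269). The feedback inhibitors, which end receptor signalling, had 3 positive and 15 negative values, 83.3% negative (median -0.17), beside 56.6% and -0.04 over all genes tested. With library size as the only scaling 13 of the 18 were negative (median -0.12), beside 48.8% and a median of 0.01 over all genes tested under that scaling. PTPN1, a phosphatase that acts on EGFR, had 116 ± 23.4 and 154 ± 25.5 CPM (log2 fold change -0.39 ± 0.213), and PTPN12, another phosphatase, had -0.44 ± 0.259. Lower values under hypoxia in 6 of 6 numbers were shown by 2 of the 18 tested feedback inhibitors, PTPN1 and SPRY1. The same held for 1 of the 23 adaptor and kinase genes and 0 of the 18 response genes, against 2.59% of all genes tested. Of the response genes 8 were positive and 10 negative (median -0.02), and with library size as the only scaling this turned to 10 and 8 and 0.02, as the median of all genes also turned positive. JUNB, an AP-1 transcription factor, had 247 ± 55.6 and 187 ± 59.7 CPM (0.40 ± 0.227), and CCND1, cyclin D1, 51.9 ± 23.9 and 76.2 ± 46.6 (-0.57 ± 0.378). Directions in this paragraph are from the fit without the block.

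Among the marker lists the 2 genes with the smallest p of each were also short of the threshold. VCAM1 stood at -0.97 ± 0.498 (log2 fold change ± SE), PDGFRB at -0.39 ± 0.347, and the leukocyte genes PTPRC and SPI1 at 0.37 ± 0.263 and 0.50 ± 0.424. The endothelial genes CDH5 and ERG had 0.40 ± 0.307 and 0.36 ± 0.283, and the epithelial genes TP63 and CDH1 -0.49 ± 0.292 and 0.27 ± 0.239. VCAM1 and TP63 were lower under hypoxia in 6 of 6 numbers, as were 2.59% of all genes tested. ERG and CDH1 were higher in 6 of 6. Tested leukocyte markers were 4 positive and 2 negative, endothelial markers 5 and 2, stromal markers 3 and 7 and epithelial markers 2 and 2. Over all genes tested 56.6% were negative. With the block the counts were 5 and 1, 6 and 1, 4 and 6, and 2 and 2, beside 53.4% negative over all genes. These lists are small, and nothing is read from their counts. The part of cell make-up in the EREG values was not tested.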

How the data were processed

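Counts of 5hmC reads per gene symbol were taken as the authors deposited them, 1 HTSeq table per library. The submitters' processing notes list HTSeq, edgeR, Bowtie2, Picard and MACS2 without an order. Not given in the sources used here were tool versions, build, annotation, counted feature and duplicate handling. Peak lists, also deposited, were not used here, because no build is named that would place peaks on the genes. The input sample was not analysed here. Rows that name no gene (88.0 to 93.0% of reads outside any feature, 4.12 to 10.3% of low alignment quality) were left out.

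The test was the quasi-likelihood F test of edgeR 4.0.16 (R 4.3.3; glmQLFit, glmQLFTest, TMM), after filterByExpr (min.count 10, min.total.count 15), with Benjamini-Hochberg adjustment over 11868 genes. The SE was taken as the log2 fold change divided by the square root of the F statistic. Log2 CPM used a prior count of 2. The scripts were run on simulated counts, whose values are not used here. Alternatives were a block, other scalings, no filter, DESeq2 1.42.0, lanes and left-out libraries.

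Groups follow the treatment label. Libraries sharing a title number deviated together from their group means (r of 0.136 to 0.478 over genes), so the numbers were taken as pairs, although the hypoxia libraries of 33 and 4 correlated best with the normoxia library of another number. All 66 library pairs differed by more than counting error, the closest with a chi-square to degrees of freedom ratio of 1.26. Of the gene rows, 26838 matched a RefSeq symbol. Text names the 10 members, the 2 genes of each list with the smallest p, the 5 most like EREG and its 3 nearest neighbours per side. Members and lists were chosen with earlier results of these data known.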

Additional observations from a re-analysis of the deposited data

How the results depend on the processing

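No member was called under any of the alternatives run. EREG stayed below 0 in all 27, with log2 fold changes of -1.14 to -0.63 when 1 library was left out and -1.08 to -0.77 in the blocked fit without a title number. Its constant sign is no support, since EREG was selected on its lower count in these same libraries and the alternatives reuse them. BTC (-0.74 to -0.46) and HBEGF (-0.82 to -0.26) also stayed below 0 without any 1 library. AREG and EGF changed sign in 6 alternatives each, ERBB3 in 4, ERBB2 in 2, and TGFA, EGFR and ERBB4 in 1 each. TGFA moved by more than the spread between libraries in lane 7 (1.03) and lane 8 (-0.37) alone. Over all genes, 0 were called without the replicate block and 4 with it. Blocked fits by DESeq2 and with library size as the only scaling, added after seeing the data as was lane 8 alone, gave 4 each. Leaving out 1 library gave 0 throughout. Leaving out both libraries of a number in the blocked fit gave 0 for numbers 110, 33 and 4, 3 for number 16, 12 for number 21 and 2 for number 49. Without the block, edgeR had 324 and DESeq2 334 genes at an unadjusted p under 0.05. The block changed no call of a member. Library-size scaling moved the median of all genes from -0.04 to 0.01. The 76 to 175 reads of TGFA, ERBB2, ERBB4 and EGF over all libraries limit what could be seen there.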

Other observations

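The chemokine genes that precede EPGN in the RefSeq order did not all follow EREG. PPBP, which encodes a platelet chemokine precursor and was chosen here after its values were seen, lies 7 count rows before EREG. It had 32.9 ± 28.3 CPM under hypoxia and 72.9 ± 59.3 under normoxia (SD over n = 6 each), with a blocked log2 fold change of -1.16 ± 0.251 (SE). PPBP was lower under hypoxia in 6 of 6 numbers, as were 2.59% of all genes tested. Its adjusted p by edgeR's quasi-likelihood test was 0.118 with the block and 1 without it. Over the 12 libraries PPBP and EREG had Pearson's r of 0.853 and Spearman's rho of 0.825, and r was 0.805 without the hypoxia libraries of numbers 16 and 21. CXCL8, the gene of the neutrophil attractant interleukin-8 and also chosen after its values were seen, lies 9 rows before EREG. Over the 12 libraries CXCL8 had r of -0.62 with EREG, although its difference between the groups had the same sign as that of EREG. CXCL8 had 82.1 ± 58.4 CPM under hypoxia and 104 ± 95.6 under normoxia, and was lower under hypoxia in 4 of 6 numbers. On the log2 scale this was -0.29 ± 0.569 in the unblocked and -0.14 ± 0.238 in the blocked fit.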
